A study of Mus musculus with 11 samples.

Results

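The genes described here encode integrins, the enzymes that cut the extracellular matrix and cell-surface proteins, the inhibitors of those enzymes, and the collagens and laminins of the matrix itself. They were taken by symbol from the RNA-seq count table, as the rows named for integrin alpha and beta chains, ADAM, ADAMTS and MMP proteases, TIMPs, collagens and laminins. The rule gave 61 of the 12647 genes in the table, and it used no measured value. Of these, 59 are family proteins: 13 integrin alpha chains, 7 integrin beta chains, 9 ADAMs, 5 ADAMTSs, 10 MMPs, 2 TIMPs, 9 collagen chains and 4 laminin chains. The other 2, Col4a3bp and Itgb3bp, share only the start of the symbol, since the first encodes a ceramide transporter and the second a centromere protein.

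RNA was sequenced from LSKs (Lin-Sca1+Kit+ cells), the bone marrow fraction that holds HSCs and multipotent progenitors, of p53+/+, p53R248W/+ and p53-/- mice on a C57BL/6 background. There were 3 libraries for each genotype and 9 in all, and the labels do not say whether a library came from 1 mouse or from several. The question was how gene expression in these cells differs when p53 is mutated or absent. The p53+/+ mice were HUPKI mice, in which most of the coding sequence of p53 is human, and the p53R248W/+ mice carried the R248W mutation on 1 such allele. The p53-/- mice had no functional p53 allele, and according to the study's methods all mice were young and free of tumors. Because p53+/+ and p53R248W/+ mice share the humanised allele and p53-/- mice do not, loss of p53 and loss of the humanised allele cannot be told apart in comparisons with p53-/- libraries.

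Integrins are paired receptors, an alpha with a beta chain, that hold cells to matrix proteins and to ligands on other cells. In bone marrow the pairs of Itga4 with Itgb1 or Itgb7 bind VCAM-1, fibronectin and MAdCAM-1 and help to keep stem and progenitor cells in their niche, while Itga2b with Itgb3 forms the fibrinogen receptor of platelets, and Itga2b already marks part of the stem cell compartment. ADAM proteases shed receptors and ligands from the cell surface, ADAMTS and MMP proteases cut the matrix, TIMPs block both kinds of enzyme, and neutrophils store several MMPs in granules.

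The total count on genes ran from 18021375 to 29750702 per library (median 20116602), and values are CPM scaled by TMM factors. The 14 LSK marker genes fixed for the check were all present. Trp53 was at 125 to 376 CPM in p53+/+, 219 to 240 CPM in p53R248W/+ and 112 to 129 CPM in p53-/- libraries, so reads were counted on the Trp53 row in p53-/- cells as well. The lowest p53+/+ library lay within the p53-/- range, so the Trp53 level did not separate these 2 genotypes. The p53 target Cdkn1a fell by 2.07 on the log2 scale in p53-/- against p53+/+ libraries (edgeR, adjusted p = 0.00914). The neutrophil transcripts Ngp, S100a8, Camp and Ltf were many times higher in p53+/+ replicate 2 and p53R248W/+ replicate 2 than in the other 7 libraries. The same pair of libraries held both Xist, at 65.0 and 149 CPM, and summed Y-linked transcripts, at 110 and 69.8 CPM. Of the other 7, p53R248W/+ replicate 3 held 184 CPM of Y-linked transcripts, and the remaining 6 held at most 0.216 CPM. Those 6 included every p53-/- library, at 0 to 0.0491 CPM. Y-linked transcripts were thus uneven between genotypes, and the main fit did not separate them from genotype. Results that rest on the 2 libraries with neutrophil transcripts are given with and without them.

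The 250 bases before an annotated start of the gene are shown for genes on which the results turn, from RefSeq on GRCm38.p6, 5′ to 3′ on the strand of the gene. Itga4 and Col1a2 passed the test between genotypes, and Mmp8 and Mmp25 were high together in the 2 libraries with neutrophil transcripts. Capitals mark matches on either strand to the GC box (GGGCGG), the CCAAT box (CCAAT), a C/EBP-type motif (TTNNGNAA) or a PU.1-type motif (GAGGAA).
Itga4 (chr2:79255176-79255425, plus strand): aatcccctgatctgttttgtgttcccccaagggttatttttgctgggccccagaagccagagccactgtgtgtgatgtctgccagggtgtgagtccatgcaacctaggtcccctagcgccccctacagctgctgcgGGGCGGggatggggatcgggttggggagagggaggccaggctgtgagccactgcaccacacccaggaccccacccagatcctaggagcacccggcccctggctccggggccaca
Col1a2 (chr6:4505368-4505617, plus strand): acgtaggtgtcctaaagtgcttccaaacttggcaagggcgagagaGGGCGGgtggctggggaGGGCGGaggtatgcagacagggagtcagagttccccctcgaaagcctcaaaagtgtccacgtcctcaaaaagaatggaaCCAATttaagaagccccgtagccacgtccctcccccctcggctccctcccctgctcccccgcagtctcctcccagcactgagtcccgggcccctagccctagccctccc
Mmp8 (chr9:7558179-7558428, plus strand): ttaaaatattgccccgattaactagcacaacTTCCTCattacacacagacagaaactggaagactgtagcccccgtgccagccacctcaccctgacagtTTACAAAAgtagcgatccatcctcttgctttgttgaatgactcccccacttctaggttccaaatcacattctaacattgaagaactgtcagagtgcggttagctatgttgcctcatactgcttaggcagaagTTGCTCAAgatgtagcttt
Mmp25 (chr17:23645270-23645519, minus strand): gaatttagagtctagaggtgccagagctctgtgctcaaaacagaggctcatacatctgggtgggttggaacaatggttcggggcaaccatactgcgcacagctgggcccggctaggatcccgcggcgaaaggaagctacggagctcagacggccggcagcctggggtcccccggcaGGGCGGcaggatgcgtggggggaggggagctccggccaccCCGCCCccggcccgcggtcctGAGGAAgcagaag

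The Itga4 window held 1 GC box and the Col1a2 window 2 GC boxes and 1 CCAAT box. The Mmp8 window held 2 C/EBP-type matches and 1 PU.1-type match, and the Mmp25 window 2 GC boxes and 1 PU.1-type match. RefSeq windows were matched for 43 of the 61 genes, which had 48 windows. A GC box was in 58.3% of these and in 32.7% of all 32851 windows of the same length. The PU.1-type motif was in 29.2% against 23.3%, the C/EBP-type motif in 22.9% against 36.8%, CCAAT in 29.2% against 33.8%, and TATAAA in 4.17% against 12.4%. The decamer consensus of a p53 site, searched on both strands, was in 1 of the 48 windows (2.08%) and in 7.13% of all windows. No motif searched has letters that hold another, and a match here describes the letters only.

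Together the 61 genes took 0.131% to 0.252% of the counts of a library. They summed to 1367 CPM in p53-/- replicate 2 and to 2460 CPM in p53+/+ replicate 2, the lowest and the highest library. Their mean over the 9 libraries was at least 1 CPM for 54 genes, at least 10 CPM for 29 and at least 100 CPM for 5. Of the 61, 58 passed the filter on low counts, and Mmp25, Col4a5 and Itgb2l did not. Per kilobase of the deposited gene length, the highest means were those of Itgb1 (65.2 CPM per kilobase), the sheddase Adam10 (51.3) and Itgb7 (44.2), as the plot of levels by family shows.

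**Figure D1:**
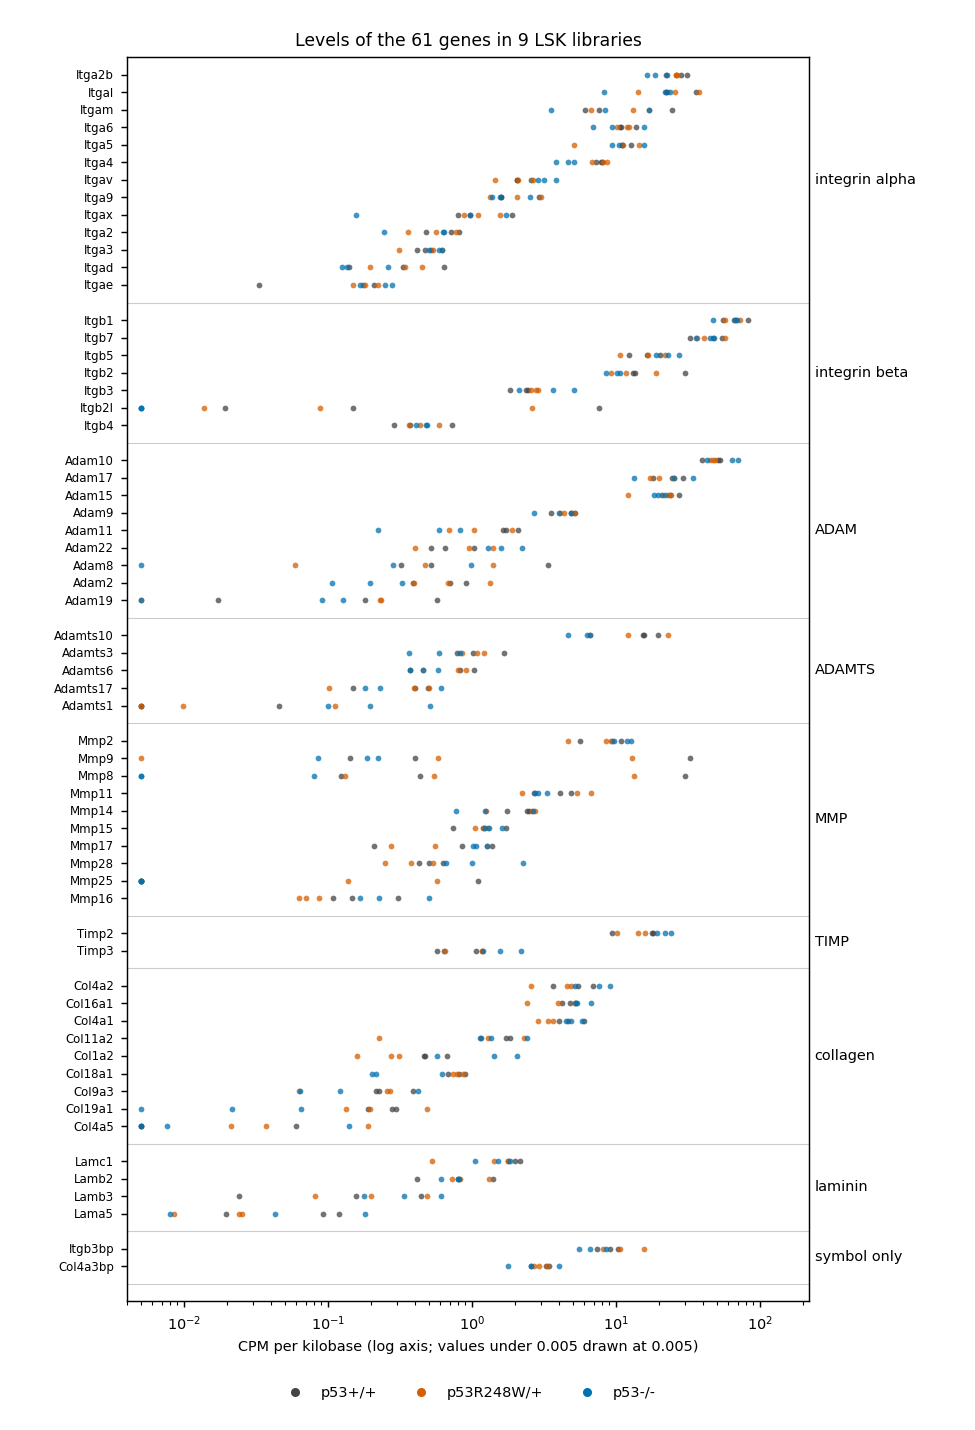
Levels of the 61 genes in CPM per kilobase on a log axis, by family, with 1 point for each of the 9 libraries coloured by genotype. Itgb1, Adam10 and Itgb7 were the highest, and Mmp9, Mmp8 and Itgb2l spread most, with p53+/+ replicate 2 and p53R248W/+ replicate 2 on the right.

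Among integrin alpha chains, Itga2b and Itgal had the highest levels, with means of 24.2 and 23.7 CPM per kilobase over the 9 libraries, and Itga6, Itga5, Itgam and Itga4 followed between 6.72 and 11.6. Itgal pairs with Itgb2 as the leukocyte receptor LFA-1, Itga5 with Itgb1 as a fibronectin receptor, and Itga6 with Itgb1 or Itgb4 as a laminin receptor. Itga4 contributed 7.55% ± 1.29 (SD, n = 3) of the summed alpha chain level per kilobase in p53+/+, 7.99% ± 1.22 in p53R248W/+ and 5.95% ± 2.17 in p53-/- libraries. Among beta chains, Itgb1 and Itgb7 together held most of the signal, with Itgb1 at 43.1% to 46.1% and Itgb7 at 29.3% to 30.9% of the family on average in each genotype. The levels of Itga6 and Itga5, and those of Itga2b and Itgal, lay within each other's range over the libraries.

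Loss of p53 was compared first, as p53-/- against p53+/+ libraries. The expression of Itga4 and Adamts10 fell, and no other of the 58 genes tested passed an adjusted p of 0.05 in edgeR's quasi-likelihood test. Over all 12625 genes tested, 3.50% passed, 1.25% as higher and 2.25% as lower. The libraries of the 2 genotypes did not overlap for 15 of the 58 genes (25.9%), 7 of them higher and 8 lower in p53-/- libraries, against 31.4% of all genes (15.4% higher and 16.0% lower). An unadjusted p under 0.05 was reached by 18 of them (31.0%), against 23.4% of all genes. In p53-/- libraries 23 of the 58 were higher and 35 lower, against 49.9% and 50.1% of all genes. The median log2 fold change was -0.15 for the 58 genes and -0.00 for all genes, but for the 58 it was 0.0545 with a covariate for Y-linked genes and 0.11 without p53+/+ replicate 2. That library was the highest of the 9 libraries for 20 of the 61 genes (32.8%, against 11.3% of all genes).

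Itga4, at chr2:79255426-79333114 on the plus strand, was at 71.4, 79.2 and 77.6 CPM in p53+/+, at 67.1, 79.5 and 85.8 CPM in p53R248W/+ and at 37.9, 45.7 and 50.3 CPM in p53-/- libraries. All 3 p53-/- libraries lay below the other 6, and the p53+/+ and p53R248W/+ libraries overlapped. The log2 fold change was -0.77 ± 0.17 (SE) in p53-/- against p53+/+ libraries, or 1.71-fold lower, with an adjusted p of 0.0351 in edgeR. It was 0.80 ± 0.17 in p53R248W/+ against p53-/- libraries, with an adjusted p of 0.0316, and 0.03 ± 0.17 in p53R248W/+ against p53+/+ libraries, with an adjusted p of 1.0. The first and second of these use the same p53-/- libraries. Cerkl lies over Itga4 on the opposite strand and had 33 to 76 counts per library, compared to 696 to 1878 counts on Itga4, and whether the counting used strand is not stated in the sources used here.

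Both beta chains that pair with Itga4 were far more abundant than it and did not separate the genotypes. Itgb1 was at 234, 349 and 278 CPM in p53+/+, at 241, 306 and 286 CPM in p53R248W/+ and at 292, 198 and 280 CPM in p53-/- libraries, with a log2 fold change of -0.16 ± 0.20 in p53-/- against p53+/+. Itgb7 was at 125, 146 and 87.4 CPM, at 97.8, 154 and 109 CPM and at 120, 95.9 and 128 CPM in the same order, with a log2 fold change of -0.06 ± 0.23. The genotypes overlapped for both chains. Each Itga4 call held in all 19 alternatives as a direction, between -0.86 and -0.65 against p53+/+ libraries, but not as a call. The call against p53+/+ was lost when p53+/+ replicate 2 or 3, p53R248W/+ replicate 2 or any p53-/- library was left out (adjusted p from 0.0575 to 0.140 in edgeR), and the call between p53R248W/+ and p53-/- was lost without p53+/+ replicate 2, p53R248W/+ replicate 2 or 3 or any p53-/- library (adjusted p from 0.0513 to 0.131). The latter call was also lost with only the 6 libraries compared (adjusted p = 0.0709, edgeR) and with a covariate for Y-linked genes (0.0936), and both were lost without the 2 libraries with neutrophil transcripts (0.167 and 0.179). In all, the call held in 12 and in 10 of the 19 alternatives.

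**Figure D2:**
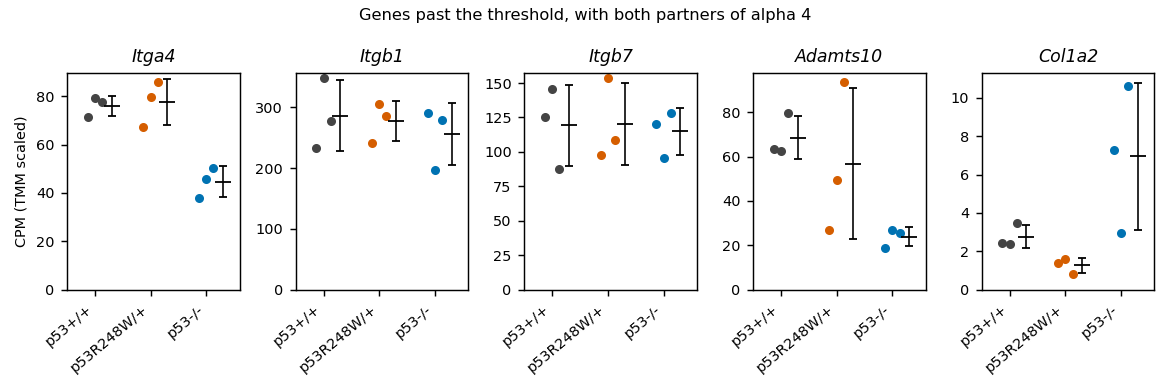
CPM of Itga4, its partners Itgb1 and Itgb7, Adamts10 and Col1a2 in each library, by genotype, with the mean and SD (n = 3) beside the points, on linear axes from 0. For Itga4 the p53-/- points, at 37.9 to 50.3 CPM, lie below all others, while the genotypes overlap for Itgb1 and Itgb7.

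The other integrins did not pass the test. Itga2b was at 76.7, 97.3 and 108 CPM in p53+/+, at 89.3, 89.9 and 91.0 CPM in p53R248W/+ and at 77.5, 56.7 and 64.0 CPM in p53-/- libraries. All p53R248W/+ libraries were above all p53-/- libraries, and p53-/- replicate 1 reached the lowest p53+/+ library (log2 fold change -0.51 ± 0.18 against p53+/+, adjusted p = 0.116, edgeR). Its partner Itgb3 had the opposite sign, at 14.2, 13.7 and 10.5 CPM, at 14.8, 16.7 and 16.0 CPM and at 29.5, 12.2 and 21.2 CPM (log2 fold change 0.71 ± 0.30, adjusted p = 0.177). Itgav, the chain that pairs with Itgb3 or Itgb5 to bind vitronectin, was at 14.4, 18.2 and 14.6 CPM, at 10.2, 14.7 and 18.8 CPM and at 22.5, 20.2 and 27.1 CPM. Its p53-/- libraries were above the other 6 (log2 fold change 0.57 ± 0.26, adjusted p = 0.209). Itgb5 was at 40.6 to 66.4 CPM in p53+/+ and at 62.6 to 90.0 CPM in p53-/- libraries, with an overlap.

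Itga5 and Itga6 had log2 fold changes of 0.03 ± 0.32 and -0.14 ± 0.26 in p53-/- against p53+/+ libraries, so that for both the SE was larger than the difference. Itga2, a collagen receptor chain at 1.03 to 3.44 CPM, overlapped between all genotypes. The leukocyte chains were uneven within genotypes. Itgam, a chain of the complement receptor Mac-1, was at 115 CPM in p53+/+ replicate 2 and at 35.6 and 28.6 CPM in the other p53+/+ libraries. Itgal was at 189 CPM in that library and at 117 CPM in each of the others. Itgb2, the beta chain of both, was at 39.1, 85.7 and 37.4 CPM in p53+/+ and at 30.5, 24.4 and 29.0 CPM in p53-/- libraries, which did not overlap (log2 fold change -0.95 ± 0.34, adjusted p = 0.124). Without p53+/+ replicate 2 and p53R248W/+ replicate 2, the log2 fold change of Itgb2 was -0.45 ± 0.25 (adjusted p = 0.425, edgeR). That of Itgal moved from -0.58 ± 0.40 to -0.32 ± 0.38, and that of Itgam from -0.41 ± 0.59 to 0.48 ± 0.50, with a change of sign.

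Of the 9 ADAM proteases none passed the test in edgeR in any comparison, with 3, 0 and 2 at an unadjusted p under 0.05 in p53-/- against p53+/+, p53R248W/+ against p53+/+ and p53R248W/+ against p53-/- libraries, and with 2, 0 and 0 passing in DESeq2. Of all genes, 23.4%, 0.958% and 21.0% reached that p in these comparisons, and 12.2%, 0.0475% and 10.5% passed in DESeq2. Adam10 and Adam17, the main sheddases of Notch receptors and of TNF, were the first and second of the family by level. Adam10 was at 234, 243 and 182 CPM in p53+/+, at 217, 223 and 208 CPM in p53R248W/+ and at 322, 196 and 296 CPM in p53-/- libraries (log2 fold change 0.30 ± 0.20 in p53-/- against p53+/+), and Adam17 at 112, 133 and 82.0 CPM, at 78.2, 116 and 89.9 CPM and at 114, 61.0 and 156 CPM (0.02 ± 0.30). The genotypes overlapped for both. Adam22, a member without protease activity, was at 6.00, 9.61 and 4.80 CPM in p53+/+ and at 14.7, 12.0 and 20.4 CPM in p53-/- libraries. They did not overlap, and p53R248W/+ libraries spread from 3.74 to 12.9 CPM (log2 fold change 1.21 ± 0.43 in p53-/- against p53+/+, adjusted p = 0.120). Adam11, also without protease activity, was at 8.31 to 10.6 CPM in p53+/+, 3.56 to 9.69 CPM in p53R248W/+ and 1.14 to 4.22 CPM in p53-/- libraries (log2 fold change -1.72 ± 0.48, adjusted p = 0.0636).

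Adamts10, a secreted protease linked to fibrillin microfibrils, lies at chr17:33523646-33553782 on the plus strand and was by far the highest ADAMTS in LSKs. It was at 63.2, 62.7 and 79.8 CPM in p53+/+, at 26.9, 49.4 and 93.8 CPM in p53R248W/+ and at 18.9, 26.7 and 25.6 CPM in p53-/- libraries. The p53-/- libraries were below all p53+/+ libraries and, by a narrow margin, below all p53R248W/+ libraries, which spread from 26.9 to 93.8 CPM. The log2 fold change was -1.53 ± 0.36 in p53-/- against p53+/+ libraries, or 2.88-fold lower, with an adjusted p of 0.0427 in edgeR. In p53R248W/+ against p53-/- libraries it was 1.25 ± 0.36, with an adjusted p of 0.0736, and in p53R248W/+ against p53+/+ libraries -0.27 ± 0.35, with an adjusted p of 1.0. The call was lost when any p53+/+ or p53-/- library or p53R248W/+ replicate 2 was left out (adjusted p from 0.0553 to 0.170), and with limma-voom (0.0582). It held in 10 of the 19 alternatives, and the log2 fold change stayed between -1.62 and -1.33 in all 19 alternatives.

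The other ADAMTS genes were low. Adamts3, which removes the amino-terminal propeptide of procollagens, was at 6.00 to 12.7 CPM in p53+/+ and at 2.80 to 6.36 CPM in p53-/- libraries (log2 fold change -0.96 ± 0.38, adjusted p = 0.156, edgeR). Adamts6 and Adamts17 were at most 4.99 CPM in any library. Adamts1, which cleaves aggrecan and versican, was at 0 counts in p53+/+ replicates 1 and 2 and p53R248W/+ replicate 1, and was highest, at 2.5 CPM, in p53-/- replicate 1 (adjusted p = 0.117). Here p53-/- libraries were above all p53+/+ libraries.

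Among MMPs the gelatinase Mmp2 had the highest mean level, at 9.18 CPM per kilobase. It was at 28.4, 33.2 and 17.2 CPM in p53+/+, at 14.1, 26.0 and 28.0 CPM in p53R248W/+ and at 36.4, 29.4 and 38.7 CPM in p53-/- libraries. The p53-/- libraries were above all p53R248W/+ libraries and overlapped p53+/+ (log2 fold change 0.40 ± 0.30 against p53+/+, adjusted p = 0.436, edgeR). Mmp14, a membrane-anchored MMP that activates Mmp2, was at 2.01 to 7.09 CPM and overlapped between all genotypes. Mmp28 was at 0.996 to 1.45 CPM in p53+/+, 0.575 to 1.23 CPM in p53R248W/+ and 1.52 to 5.20 CPM in p53-/- libraries, above both other genotypes (log2 fold change 1.32 ± 0.57 against p53+/+, adjusted p = 0.190). Mmp16, a membrane-type MMP, was at 0.289 to 0.395 CPM in p53R248W/+ libraries, below all other libraries (log2 fold change -1.34 ± 0.69 against p53+/+, adjusted p = 1.0).

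The neutrophil proteases had a different distribution, high in 1 library each of p53+/+ and p53R248W/+ mice and low in the rest. Mmp8, the neutrophil collagenase at chr9:7558429-7568486, was at 74.2 CPM in p53+/+ replicate 2 and 32.5 CPM in p53R248W/+ replicate 2, and at most 1.33 CPM in the other 7 libraries. Mmp9, a gelatinase of neutrophil granules at chr2:164940326-164955850, was at 104 and 40.8 CPM in the same libraries and at most 1.83 CPM elsewhere. Itgb2l, a beta 2-like integrin chain at chr16:96422288-96443664, was at 19.9 and 6.88 CPM, and at most 0.390 CPM elsewhere. Mmp25, a membrane-anchored MMP of leukocytes at chr17:23628315-23645269, was at 3.74 and 1.93 CPM, at 0.467 CPM in p53R248W/+ replicate 1 and at 0 counts in the other 6 libraries. For these 4 of 61 genes (6.56%) both libraries were at least 2 times as high as every other library, which held for 54 of all 12647 genes (0.427%).

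The granule genes Ngp, at 1003 and 584 CPM in these 2 libraries and at most 22.6 CPM in the others, and S100a8, at 799 and 548 CPM and at most 44.3 CPM in the others, moved with them, as did Camp and Ltf. The summed level of the 16 granulocyte and monocyte markers, all of which had a row, was 3159, 8689 and 4402 CPM in p53+/+, 5872, 10210 and 4649 CPM in p53R248W/+ and 2585, 2754 and 2350 CPM in p53-/- libraries. The 2 libraries were also the 2 highest of the 9 for 12 of the 61 genes (19.7%, against 5.03% of all genes), among them Itgam, Itgb2, Itgal, Adam8 and Adam15. Adam8, a leukocyte sheddase, was at 10.6 and 4.33 CPM in them and at most 3.07 CPM elsewhere. In bulk RNA, more cells of a type and more RNA per cell cannot be told apart, and the part of other cells in these values was not tested.

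**Figure D3:**
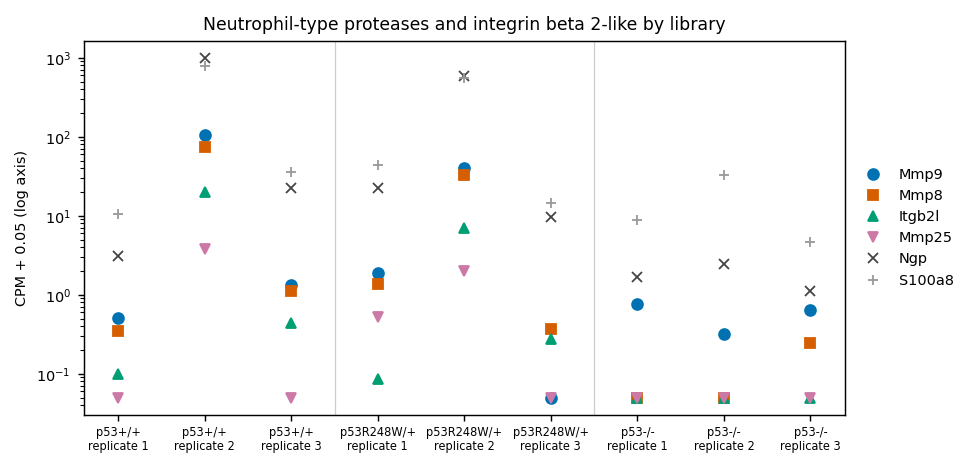
CPM plus 0.05 on a log axis for Mmp9, Mmp8, Itgb2l, Mmp25 and the granule genes Ngp and S100a8 in each of the 9 libraries. All 6 genes are highest in p53+/+ replicate 2 and p53R248W/+ replicate 2, where Mmp8 reached 74.2 and 32.5 CPM compared to at most 1.33 CPM in the other libraries.

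There was 1 such library in each of p53+/+ and p53R248W/+ and none in p53-/-. The fold changes of these genes against p53-/- libraries were large and their errors as well. For Mmp8 the log2 fold change was -8.46 ± 2.58 in p53-/- against p53+/+ libraries (adjusted p = 0.0811, edgeR) and -3.26 ± 1.38 without the 2 libraries (adjusted p = 0.286), with 4 counts in all on Mmp8 in p53-/- libraries. For Mmp9 it was -6.08 ± 2.19 (adjusted p = 0.127) and -0.73 ± 1.24 without them (adjusted p = 0.830). For Adam8 it was -1.72 ± 1.26 (adjusted p = 0.438) and 0.03 ± 1.24 without them (adjusted p = 0.997). Without the 2 libraries, no member passed in any comparison, and the adjusted p was 0.167 for Itga4 and 0.103 for Adamts10 in p53-/- against p53+/+ libraries, with log2 fold changes of -0.74 and -1.59 close to those with them.

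Both TIMPs were higher in every p53-/- library than in any other, though neither passed the test. Of all genes, 15.4% were higher without overlap in p53-/- than in p53+/+ libraries. A further comparison, p53R248W/+ against p53-/- libraries, had 12.0% of all genes lower without overlap. Timp2, which blocks MMPs and is needed for the activation of Mmp2, was at 64.2, 65.0 and 34.2 CPM in p53+/+, at 36.6, 51.9 and 57.9 CPM in p53R248W/+ and at 87.6, 69.7 and 79.8 CPM in p53-/- libraries. The log2 fold change was 0.54 ± 0.26 in p53-/- against p53+/+ libraries (adjusted p = 0.230, edgeR) and -0.70 ± 0.26 in p53R248W/+ against p53-/- libraries (adjusted p = 0.145). Timp3, which stays bound to matrix and inhibits Adam17 too, was at 2.97, 4.98 and 2.68 CPM, at 5.53, 5.54 and 3.06 CPM and at 5.60, 7.36 and 10.2 CPM in the same order. The log2 fold change was 1.12 ± 0.39 in p53-/- against p53+/+ libraries (adjusted p = 0.113, and below 0.05 in DESeq2). For Timp3 the lowest p53-/- library was close to the highest p53R248W/+ libraries.

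The effect of the mutant allele was read from p53R248W/+ against p53+/+ libraries. None of the 58 genes passed in edgeR, in DESeq2 or in limma-voom, and 1 gene of all tested did in edgeR, or 0.00792%, and 0.0475% of all genes in DESeq2. An unadjusted p under 0.05 was reached by Col4a1 and Col1a2, or 3.45% of the 58 genes against 0.958% of all. The genotypes did not overlap for 5 genes (8.62%, against 5.04% of all genes, of which 2.66% were higher and 2.38% lower). These were Itgb3, which was higher in p53R248W/+ libraries, and Col1a2, Col4a1, Lamc1 and Mmp16, which were lower. By sign alone 18 of the 58 were higher and 40 lower in p53R248W/+ libraries, against 52.5% and 47.5% of all genes, and the median of their log2 fold changes was -0.06 against 0.01 for all genes. For the 58 genes this median ran from -0.21 to 0.07 with 1 library left out. It was 0.02 without both libraries with neutrophil transcripts and -0.29 with the covariate for Y-linked genes.

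Finally p53R248W/+ was compared with p53-/- libraries. Itga4 was higher and Col1a2 lower in p53R248W/+ libraries, and these were the 2 of 58 genes that passed in edgeR, against 3.44% of all genes (2.34% higher and 1.10% lower). The libraries did not overlap for 18 of 58 genes (31.0%, against 24.2% of all genes), 8 higher and 10 lower in p53R248W/+ (12.1% and 12.0% of all genes). By sign alone 30 were higher and 28 lower, against 51.7% and 48.3% of all genes. An unadjusted p under 0.05 was reached by 20 (34.5%, against 21.0% of all genes), and the median log2 fold change was 0.04 against 0.02 (-0.39 for the 58 genes with the covariate for Y-linked genes). DESeq2 passed 7 of the 58 genes in this comparison, against 10.5% of all genes, namely Adamts10, Col19a1, Col1a2, Col4a1, Col4a2, Itga4 and Mmp28. In p53-/- against p53+/+ libraries it also passed 7, namely Adam11, Adam22, Adamts10, Col19a1, Itga4, Itgb2 and Timp3, against 12.2% of all genes.

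Col1a2 encodes a chain of type I collagen, the main fibrillar collagen of bone, and lies at chr6:4505618-4541543 on the plus strand. It was low in LSKs, at 2.42, 2.39 and 3.46 CPM in p53+/+, at 1.40, 1.59 and 0.823 CPM in p53R248W/+ and at 7.29, 2.94 and 10.6 CPM in p53-/- libraries, which are 18 to 216 counts. All p53R248W/+ libraries lay below all others, and p53-/- replicate 2 lay within the p53+/+ range. The log2 fold change was -2.44 ± 0.51 in p53R248W/+ against p53-/- libraries, or 5.44-fold lower, with an adjusted p of 0.0281 in edgeR. It was -1.11 ± 0.50 in p53R248W/+ against p53+/+ libraries (adjusted p = 1.0) and 1.33 ± 0.48 in p53-/- against p53+/+ libraries (adjusted p = 0.129). The call was lost without p53R248W/+ replicate 2 or 3 or p53-/- replicate 1 or 3 (adjusted p from 0.0718 to 0.118). It was also lost with limma-voom (0.0611), with only the 6 libraries compared (0.0561), with the covariate for Y-linked genes (0.0940) and without the 2 libraries with neutrophil transcripts (0.0962), and held in 11 of the 19 alternatives. With the covariate, Adam22 and Col4a2 passed in place of Itga4 and Col1a2.

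Beside Col1a2, 5 of 17 stromal markers had a row (Pdgfrb, Runx2, Alpl, Sparc and Bgn), with a summed level of 162, 182 and 147 CPM in p53+/+, 104, 176 and 220 CPM in p53R248W/+ and 144, 142 and 153 CPM in p53-/- libraries. Most of the sum was Pdgfrb and Runx2. Pdgfrb, a growth factor receptor gene of stromal cells, was at 74.0, 101 and 69.5 CPM in p53+/+, at 39.8, 92.5 and 117 CPM in p53R248W/+ and at 64.6, 39.6 and 62.8 CPM in p53-/- libraries, and Runx2, an osteoblast transcription factor gene, at 57.9 to 95.9 CPM. Alpl, the alkaline phosphatase gene of osteoblasts, was at 0.202 to 2.46 CPM. The matrix protein gene Sparc was at 2.27, 0.896 and 2.56 CPM, at 1.11, 0.819 and 0.731 CPM and at 4.46, 5.20 and 2.16 CPM in the same order, and the matrix proteoglycan gene Bgn at 4.94, 3.99 and 2.90 CPM, at 3.95, 2.55 and 5.30 CPM and at 9.79, 6.91 and 6.38 CPM. The sum did not separate the genotypes. Among p53-/- and p53+/+ libraries alone, Pdgfrb was lower and Bgn and Alpl were higher in all 3 p53-/- libraries without overlap. These were 60% of the 5 markers, against 31.4% of all genes. In p53R248W/+ against p53-/- libraries, Sparc and Bgn were lower without overlap, as Col1a2 was, and 0 of the 5 were higher without overlap. The 2 were 40% of the 5 markers, against 24.2% of all genes. The part of stromal cells in the Col1a2 values was not tested.

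Of the 8 collagen genes tested, 6 did not overlap between p53R248W/+ and p53-/- libraries, 4 lower and 2 higher in p53R248W/+, against 24.2% of all genes (12.0% lower and 12.1% higher). Col4a1 and Col4a2, the neighbouring genes of the main basement membrane collagen, were both lower. Col4a1 was at 26.7, 39.9 and 30.7 CPM in p53+/+, at 18.9, 22.3 and 24.0 CPM in p53R248W/+ and at 32.3, 38.4 and 29.6 CPM in p53-/- libraries. Its p53R248W/+ libraries were below the other 6 (log2 fold change -0.58 ± 0.21 against p53+/+, adjusted p = 1.0, and -0.62 ± 0.21 against p53-/-, adjusted p = 0.116, edgeR). Col4a2 was at 34.9, 44.7 and 23.5 CPM, at 16.5, 31.2 and 29.2 CPM and at 49.2, 33.2 and 58.9 CPM, and its p53R248W/+ libraries overlapped only those of p53+/+ (-0.88 ± 0.31 against p53-/-, adjusted p = 0.129). Col16a1, a minor collagen found with fibrils, was at 12.6, 20.5 and 27.1 CPM in p53R248W/+ and at 28.0, 27.4 and 35.0 CPM in p53-/- libraries (-0.59 ± 0.26, adjusted p = 0.223).

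The 2 collagens that were higher in p53R248W/+ than in p53-/- libraries were Col18a1, the source of endostatin, and Col19a1, a minor basement membrane collagen. Col19a1 was at 2.92, 1.99 and 3.12 CPM in p53+/+, at 1.40, 2.07 and 5.16 CPM in p53R248W/+ and at 0, 0.226 and 0.687 CPM in p53-/- libraries. The p53-/- libraries were below the other 6 (log2 fold change -3.10 ± 0.87 against p53+/+, adjusted p = 0.0655, edgeR). Col18a1 was at 3.93 to 5.18 CPM in p53+/+, 4.25 to 5.03 CPM in p53R248W/+ and 1.18 to 3.59 CPM in p53-/- libraries (-1.20 ± 0.45, adjusted p = 0.142).

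The laminins, which build basement membranes with collagen IV, were low and did not pass in any comparison in edgeR. Of the 4 genes, 0 reached an unadjusted p under 0.05 or passed in DESeq2. That p was reached by 23.4% of all genes in p53-/- against p53+/+, 0.958% in p53R248W/+ against p53+/+ and 21.0% in p53R248W/+ against p53-/- libraries. DESeq2 passed 12.2%, 0.0475% and 10.5% of all genes in the same order. Lamc1 was highest, at 16.5, 13.5 and 15.2 CPM in p53+/+, at 3.99, 13.5 and 10.9 CPM in p53R248W/+ and at 8.05, 11.5 and 14.0 CPM in p53-/- libraries. It was lower in p53R248W/+ than in p53+/+ libraries without overlap, by a narrow margin (log2 fold change -0.67 ± 0.39). The library at 3.99 CPM, p53R248W/+ replicate 1, was the lowest of the 9 libraries for 16 of the 61 genes (26.2%, against 17.7% of all genes). Lamb2 and Lamb3 were at most 7.87 and 2.53 CPM. Of the 2 genes that share only the symbol, Itgb3bp was at 15.1 to 42.7 CPM and Col4a3bp at 9.57 to 21.4 CPM, and both overlapped between p53-/- and p53+/+ libraries.

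**Figure D4:**
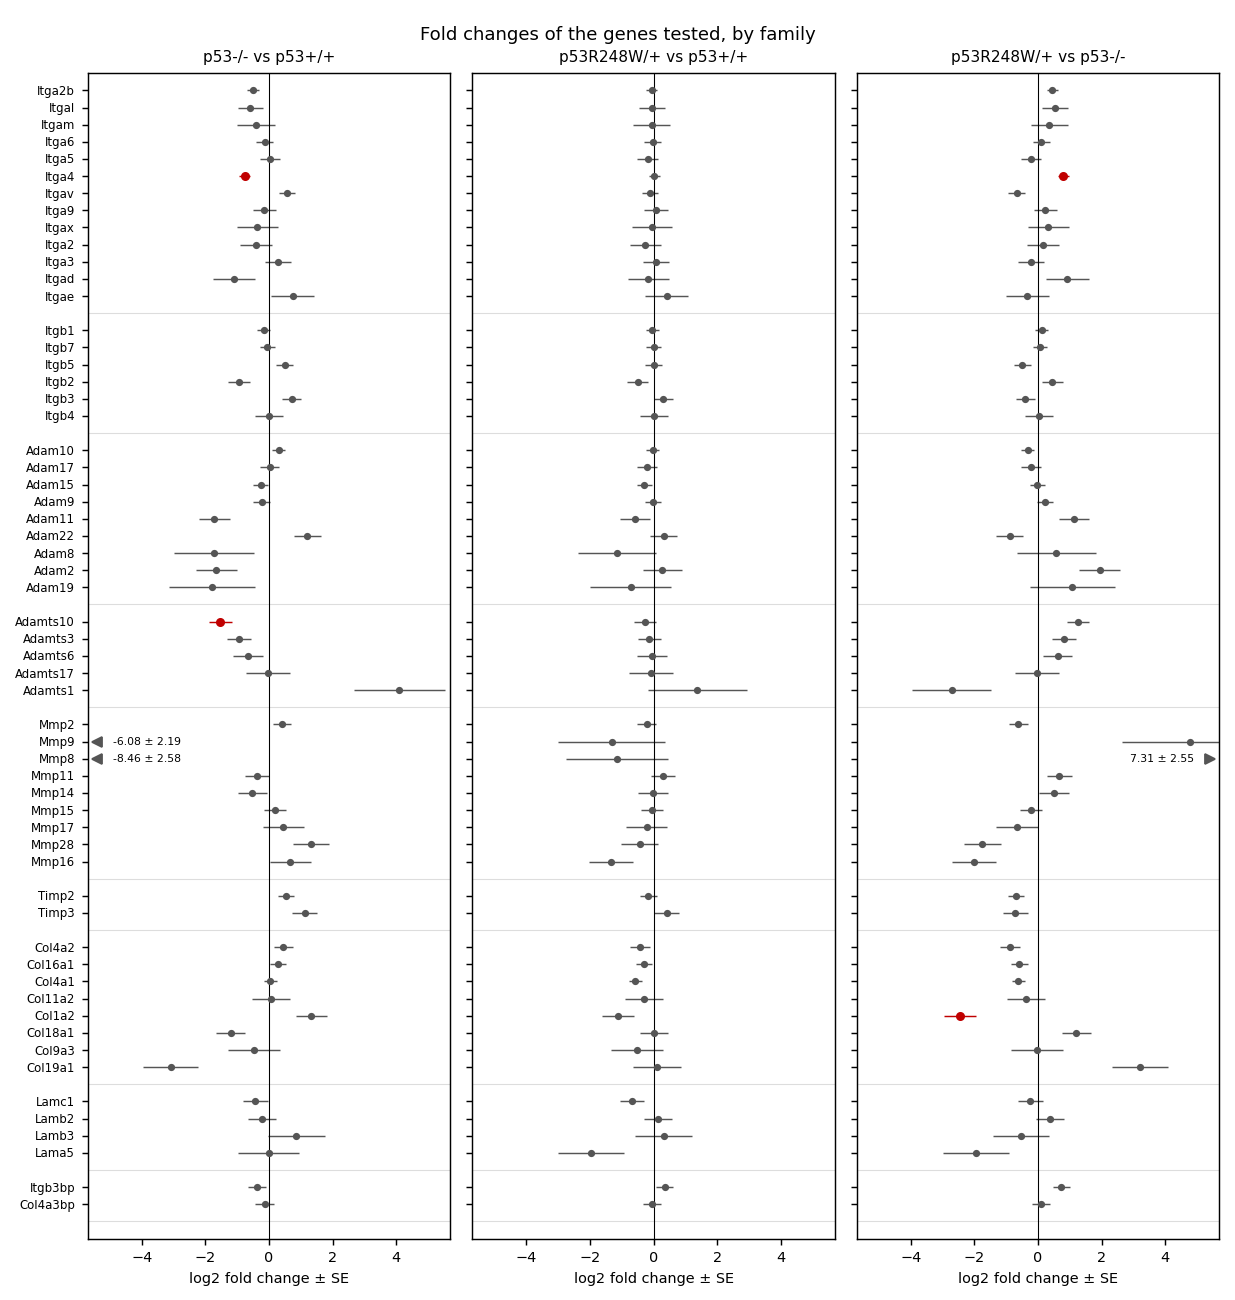
Log2 fold changes ± SE of the 58 genes tested in the 3 comparisons, by family in the order integrin alpha, integrin beta, ADAM, ADAMTS, MMP, TIMP, collagen, laminin and the genes that share only a symbol. Red marks an adjusted p under 0.05 and triangles mark values off the axis, with Mmp8 at -8.46 ± 2.58 in p53-/- against p53+/+ libraries.

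The machinery around these families was read from 4 lists, of which 101 genes had a row and were tested. The integrin adhesome, the talin, kindlin and small GTPase genes that switch integrins on and tie them to actin, had 35 of 41 listed genes. None passed in p53-/- against p53+/+ libraries in edgeR, with 10 (28.6%, against 23.4% of all genes) at an unadjusted p under 0.05 and 2 passing in DESeq2 (12.2% of all genes did), and the median log2 fold change was -0.04. In p53R248W/+ against p53-/- libraries Rasgrp2, the exchange factor that activates Rap1 ahead of integrins, was higher, at 148, 157 and 152 CPM compared to 94.7, 107 and 100 CPM (log2 fold change 0.59 ± 0.15, adjusted p = 0.0489). Of all genes, 3.44% passed in that comparison. The actin crosslinker Actn4 was at 221, 377 and 344 CPM in p53+/+ and at 144, 140 and 174 CPM in p53-/- libraries, without overlap (-1.04 ± 0.28, adjusted p = 0.0588).

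Of the other matrix glycoproteins and proteoglycans, 25 of 48 listed genes had a row. Emilin2, an elastin-associated glycoprotein, fell in p53-/- against p53+/+ libraries, from 28.4, 57.7 and 57.9 CPM to 20.1, 9.13 and 22.1 CPM (log2 fold change -1.49 ± 0.37, adjusted p = 0.0497, edgeR). The other 24 did not pass, and of all genes 3.50% passed. None of the 25 passed in p53R248W/+ against p53-/- libraries, with 5 (20%, against 21.0% of all genes) at an unadjusted p under 0.05 and 1 passing in DESeq2 (10.5% of all genes did). Of the collagen-processing enzymes, 15 of 32 had a row. None passed in any comparison, with 1 at an unadjusted p under 0.05 in p53-/- against p53+/+ and 1 in p53R248W/+ against p53-/- libraries, or 6.67% in each, against 23.4% and 21.0% of all genes. In DESeq2, 1 and 0 passed, against 12.2% and 10.5% of all genes.

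Of other protease genes and their regulators, 26 of 37 had a row. Tspan5, a tetraspanin that guides Adam10 to the cell surface, rose in p53-/- against p53+/+ libraries, from 63.8, 63.3 and 49.6 CPM to 123, 81.1 and 98.0 CPM (log2 fold change 0.77 ± 0.19, adjusted p = 0.0448, edgeR). Ctsg, a serine protease of neutrophil and monocyte granules, was higher in p53R248W/+ than in p53-/- libraries, at 310, 275 and 160 CPM compared to 77.5, 112 and 59.3 CPM (1.58 ± 0.33, adjusted p = 0.0281). Of all genes, 3.50% passed in the comparison given for Tspan5 and 3.44% in that given for Ctsg. In p53R248W/+ against p53+/+ libraries no gene of the 4 lists passed in edgeR and none had an unadjusted p under 0.05. Of all genes, 0.00792% and 0.958% did. The calls of Emilin2 and Tspan5 lay close to the threshold and held in 8 and 9 of the 19 alternatives. Both were lost without p53+/+ replicate 2 or 3, p53R248W/+ replicate 2 or 3 or any p53-/- library (adjusted p from 0.0553 to 0.195, edgeR), and that of Tspan5 also without p53+/+ replicate 1 (0.0574). The call of Rasgrp2 held in 5 of the 19 and was lost when any 1 library other than p53R248W/+ replicate 1 was left out (adjusted p from 0.0601 to 0.175). That of Ctsg held in 15 of the 19, and was lost without p53R248W/+ replicate 2 or p53-/- replicate 1 or 3 (adjusted p from 0.0916 to 0.104) and without the 2 libraries with neutrophil transcripts (0.0968).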

How the data were processed

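Counts were analysed for 9 RNA-seq libraries, 3 of each genotype, grouped by the labels. The authors deposited 1 table of raw read counts per gene, with a gene length in bases. Per the labels, reads were aligned with STAR 2.5.2b to mm10 and counted with featureCounts of Subread 1.5.0. The sources differ on the library kit (SMART-Seq or oligo(dT) beads with random hexamers), and the annotation is not given in the sources used here. The same table holds the authors' own comparisons (a log2 fold change, a p-value and a false discovery rate for each pair of genotypes), which were not used. The lowest row total was 37 counts, so rows with fewer counts had been left out before deposit, and a gene without a row was not analysed here.

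For tests of differences, edgeR 4.0.16 was run in R 4.3.3 (filterByExpr by genotype, TMM factors of 0.935 to 1.04, 1 quasi-likelihood fit to all 9 libraries, Benjamini-Hochberg adjustment over the 12625 genes tested, adjusted p under 0.05). The SE of a log2 fold change was taken from its F statistic. The biological coefficient of variation was 0.281, and every p-value measures the spread between these libraries, which may be partly technical. Levels of different genes were compared only per kilobase. The other settings tried were limma-voom with limma 3.58.1, DESeq2 1.42.0, DESeq2 size factors or upper-quartile factors in edgeR, no filter, a strict filter (10 or more counts in each of the 9 libraries), a fit to the 6 libraries compared, the replicate number as a block, a covariate for Y-linked genes, leaving out each library, and a threshold of 0.10. Leaving out both libraries with neutrophil transcripts was chosen after seeing the data. The fit was tested on simulated counts.

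Genes were named where they passed, were among the 3 highest of a family by level, were among the 3 largest or smallest fold changes of a comparison at a mean of at least 1 CPM, or have a known role in blood stem cells or platelets, which gave 37 genes. Others (Adam11, Adamts1, Mmp16, Mmp25, Itgb2l, Col18a1, Actn4, Sparc, Bgn, Pdgfrb, Runx2, Alpl, Fn1, Prg2, Thbs1 and Prss34) were chosen after their values were seen. The genes, lists and tests were chosen with earlier results of these data known. Gene positions and bases before gene starts are from RefSeq (GRCm38.p6), and overlaps from GENCODE M21, where 30 of the 61 genes overlap a gene on the opposite strand. H3K27me3 ChIP-seq was not analysed here.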

Additional observations from a re-analysis of the deposited data

How the results depend on the processing

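For p53-/- against p53+/+ libraries, 2 members passed. The number was 7 with DESeq2, 1 with limma-voom, 5 with only the 6 libraries compared, 5 at a threshold of 0.10, 0 without both libraries with neutrophil transcripts, and 0 to 6 when 1 library was left out. The 2 calls in the 4 pathway lists became 9, 0, 6, 1 without a filter, 4 with the strict filter, 0 without both libraries, and 0 to 8 with 1 library left out. The median log2 fold change of -0.15 became 0.0545 with the Y-linked covariate and 0.11 without both libraries (-0.26 to 0.11 with 1 left out). For p53R248W/+ against p53-/- libraries, the 2 members became 7, 1, 0 with 6 libraries, 4 at 0.10, 0 without both libraries, and 0 to 4 with 1 left out. The 2 calls in the lists became 5 with DESeq2, 1 with limma-voom, DESeq2 size factors, 6 libraries or without both libraries, and 0 to 10 with 1 left out, and the median of 0.04 became -0.39 with the covariate. For p53R248W/+ against p53+/+ libraries, 9 members in place of 5 did not overlap without both libraries. The cause of these shifts was not tested. Calls over all genes, 442 and 434 in the comparisons with p53-/- libraries, rose to 1485 and 1559 without p53R248W/+ replicate 1. The former fell to between 37 and 103 without p53+/+ replicate 2 or 3 or any p53-/- library, and to 278 and 294 without p53R248W/+ replicate 2 or 3. The latter fell to between 77 and 164 without p53R248W/+ replicate 2 or 3 or any p53-/- library.

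With the replicate number as a block, 5 members passed in each comparison with p53-/- libraries, and 5 and 1 list genes. Over all genes, 882, 2 and 672 passed in place of 442, 1 and 434. The numbers were not used as pairs in the main fit. Deviations of same-numbered libraries correlated at 0.038 to 0.616 between p53R248W/+ and p53+/+, and at -0.166 to -0.004 between p53-/- and p53+/+ libraries. Between p53R248W/+ and p53-/- libraries they correlated at -0.165 to 0.223. For p53+/+ and p53R248W/+ libraries, replicates 1 correlated at 0.474 and replicates 2 at 0.616. Replicate 1 of p53+/+ correlated with p53R248W/+ replicate 2 at -0.57, and p53+/+ replicate 2 with p53R248W/+ replicate 1 at -0.48. Deviations were taken from the mean of each genotype, so positive correlations bring negative ones with other libraries. These negative values are therefore no separate evidence. What the same-numbered libraries of these 2 genotypes share was not tested. The 4 fold changes called kept their direction in all 19 alternatives. Of 2092 values of single genes under alternatives, 1978 kept direction and side of the threshold, 24 came to pass, 33 no longer passed and 57 moved by more than the spread between libraries. Members under about 3 CPM rest on few counts, and how large a difference could be detected at such levels was not tested.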

Other observations

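Other genes were also highest in the 2 libraries in which Mmp8 and Mmp9 were high, though not all were low in every other library. Fn1, which encodes fibronectin, a ligand of the Itga4 and Itga5 receptors, was at 14.6 CPM in p53+/+ replicate 2 and 10.7 CPM in p53R248W/+ replicate 2, and at most 0.669 CPM in the other 7 libraries. Prg2, a proteoglycan of eosinophil granules, was at 484 and 290 CPM in them, at 142 CPM in p53-/- replicate 2 and at most 19.1 CPM in the other 6. The mast cell and basophil protease gene Prss34 was at 142 and 126 CPM in the same libraries, at 60.5 CPM in p53-/- replicate 2 and at most 11.7 CPM elsewhere. For Prg2 and Prss34, p53-/- replicate 2 was next after these, while it held 0 counts of Mmp8.

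Thbs1, which encodes the matrix protein thrombospondin of platelet granules and monocytes, was at 304 CPM in p53-/- replicate 3 and at 0.549 to 47.5 CPM in the other 8 libraries, and the fold change did not pass (log2 fold change 2.40 ± 1.23 in p53-/- against p53+/+ libraries, adjusted p = 0.262, edgeR). Srgn, the proteoglycan of blood cell granules and the highest of the matrix list per kilobase, was at 754 to 1438 CPM and overlapped between all genotypes.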
